A study of Mus musculus with 8 samples.

Results

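The IL-12, IL-18 and interferon-gamma axis was followed through MC38 tumors as 10 genes of the 24787 listed across the deposited tables: *Il12a* and *Il12b*, *Il12rb1* and *Il12rb2*, *Il18* and *Il18r1*, *Ifng* and *Ifngr1*, *Stat4* and *Tbx21*. They were chosen by name, and every one was found, although *Il12a* had 29 UMIs (unique molecular identifiers, each standing for 1 captured transcript) in all cells kept. MC38 is a colon carcinoma line that was grown under the skin of C57BL/6 mice. The tumors were taken 24 h after saline (3 tumors), free R848 (3 tumors) or the medium BPD (2 tumors), and single cells were profiled by Seq-Well, a microwell method that counts the 3′ ends of transcripts. R848 (resiquimod) is an agonist of Toll-like receptors 7 and 8, and the BPD is a bottlebrush polymer that carries R848 on a linker with a medium rate of release. The label of each tumor gives a replicate number and no animal identity, and CD45+ cells were loaded in excess of CD45- cells, so every share below is a share of the cells loaded.

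IL-12 is a heterodimer of p40, encoded by *Il12b*, and p35, encoded by *Il12a*, and is made by dendritic cells and macrophages that sense microbial products. It binds a receptor made of the *Il12rb1* and *Il12rb2* chains on natural killer (NK) and T cells, where it acts through STAT4 and, with the transcription factor T-bet (*Tbx21*), switches on *Ifng*. IL-18, an IL-1 family cytokine that is cut to its active form by inflammasome caspases, acts with IL-12 through a receptor that contains the *Il18r1* chain, and interferon-gamma signals back to myeloid and tumor cells through *Ifngr1* and its partner chain.

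After limits on genes, UMIs and mitochondrial reads, 9886 of 10791 barcodes were kept, with 5867590 to 12422614 UMIs per tumor in the files and a median of 3247 to 6928 UMIs per cell. Cells were clustered without the 10 genes and without the pathway genes tested below, and clusters were named from fixed marker lists, which gave 5349 monocyte/macrophage-like, 676 DC-like, 1033 NK-like, 622 T-like and 1885 MC38-like cells. The DC-like, NK-like and T-like labels held in part. Summed DC markers reached 4082 to 9349 UMIs per 1000000 UMIs of the class (CPM) in DC-like cells against 33.9 to 166 CPM in monocyte/macrophage-like cells and up to 537 CPM in the other classes, but DC-like cells also carried 2770 to 5728 CPM of monocyte/macrophage markers. NK-like cells carried 3119 to 12410 CPM of NK markers and 1884 to 3101 CPM of monocyte/macrophage markers. T-like cells carried 1426 to 6031 CPM of T markers, against 4.10 to 389 CPM in the other 4 classes, but also 3647 to 12420 CPM of monocyte/macrophage markers. In the medium BPD tumors they carried as much of NK markers (1655 to 2865 CPM) as of T markers (1426 to 2554 CPM), and the part of such RNA in the T-like values was not tested. Over all tumors 321 T-like cells and 103 DC-like cells lay in subclusters led by markers of another class. Any 2 tumors shared 9 to 14 barcodes, and 59 kept cells had a shared barcode. Leaving out these cells, or the mixed subclusters, did not change the number of the 10 genes called in any class.

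In the mouse genome (GRCm38), *Il12b* lies on chromosome 11 at 44400063 to 44414033 on the plus strand, *Il12rb1* on chromosome 8 at 70808449 to 70821424, plus strand, *Il12rb2* on chromosome 6 at 67291318 to 67376188, minus strand, and *Stat4* on chromosome 1 at 51987148 to 52107189, plus strand. *Il12rb2* overlaps *Serbp1* on the other strand and *Il18* overlaps *Bco2* and *Tex12*, and whether the counting used strand is not given in the sources used here. The 250 bases before the annotated starts of *Il12b*, *Il12rb2* and *Stat4* are shown because these are the genes whose transcripts in DC-like cells the results below turn on. The sequences are from RefSeq (GRCm38.p6), where 9 of the 10 genes had an entry. They were searched on both strands for a GAS element (TTCNNNGAA), an ISRE core (GAAA, 2 bases, GAAA), an NF-kB element (GGG, 5 bases, CC) and a T-box core (AGGTGTGA), and capitals mark the matches.
Il12b promoter, chr11:44399813-44400062, plus strand: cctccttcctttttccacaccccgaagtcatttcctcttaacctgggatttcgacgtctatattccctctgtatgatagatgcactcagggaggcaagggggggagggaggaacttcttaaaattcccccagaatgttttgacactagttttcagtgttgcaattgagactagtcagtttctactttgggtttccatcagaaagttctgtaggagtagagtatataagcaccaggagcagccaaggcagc
Il12rb2 promoter, chr6:67376189-67376438, minus strand: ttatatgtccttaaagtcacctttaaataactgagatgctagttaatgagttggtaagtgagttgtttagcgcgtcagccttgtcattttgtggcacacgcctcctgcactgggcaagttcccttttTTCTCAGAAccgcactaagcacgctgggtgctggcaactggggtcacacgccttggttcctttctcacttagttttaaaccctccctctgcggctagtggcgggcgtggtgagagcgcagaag
Stat4 promoter at the first start, chr1:51986898-51987147, plus strand: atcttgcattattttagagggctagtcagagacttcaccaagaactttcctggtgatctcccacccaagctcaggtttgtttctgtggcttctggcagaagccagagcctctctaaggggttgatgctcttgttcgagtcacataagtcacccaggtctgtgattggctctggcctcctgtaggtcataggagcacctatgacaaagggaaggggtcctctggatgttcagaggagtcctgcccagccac
Stat4 promoter at the second start, chr1:52007990-52008239, plus strand: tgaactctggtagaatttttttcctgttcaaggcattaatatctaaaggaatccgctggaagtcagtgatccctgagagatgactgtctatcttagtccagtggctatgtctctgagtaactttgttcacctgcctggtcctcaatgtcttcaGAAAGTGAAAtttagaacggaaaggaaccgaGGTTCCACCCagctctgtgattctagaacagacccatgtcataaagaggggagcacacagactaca
The window of *Il12b* and that of the first *Stat4* start held none of the 4 letter patterns. The *Il12rb2* window held a GAS match 123 to 115 bases before the start, and the second *Stat4* window an ISRE core match at 97 to 88 bases and an NF-kB match at 66 to 57 bases before the start. Of 32851 promoters of this length, 7.02% held the GAS pattern, 2.98% the ISRE core, 45.8% the NF-kB pattern and 1.12% the T-box core.

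Levels are compared below among the 5 classes that were tested, and they are given as descriptions. They are the CPM of a class in a tumor, and they compare classes for 1 gene, not genes with each other. *Il12b* averaged 760 ± 345 CPM in DC-like cells (SD, n = 8 tumors) and 5.85 ± 3.79 CPM in monocyte/macrophage-like cells, and DC-like cells were above in 8 of 8 tumors. *Stat4* was also highest in DC-like cells, at 351 ± 141 CPM, ahead of T-like cells at 120.5 ± 41.3 CPM in 8 of 8 tumors and NK-like cells at 90.3 ± 19.2 CPM. *Tbx21* had its highest level in NK-like cells, 174 ± 24.5 CPM, against 85.2 ± 32.2 CPM in T-like cells, again in 8 of 8 tumors.

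The receptor chains were spread more widely. *Il12rb1* was highest in NK-like cells (126 ± 55.6 CPM), then in T-like cells (64.7 ± 21.5 CPM) and in MC38-like cells (30.4 ± 14.5 CPM). *Il12rb2* reached 117 ± 38.9 CPM in T-like, 77.7 ± 53.2 CPM in DC-like and 65.0 ± 9.82 CPM in NK-like cells, and the order of the latter 2 depended on treatment. In the saline tumors DC-like cells (12.1 to 35.2 CPM) lay below NK-like cells (58.2 to 65.0 CPM), and in the medium BPD tumors they lay above (98.3 and 145 CPM against 70.2 and 85.5 CPM). *Il18r1* stood at 141 ± 28.7 CPM in T-like and 99.6 ± 24.4 CPM in NK-like cells, with T-like cells above in 7 of 8 tumors. *Il18* was highest in monocyte/macrophage-like cells, 24.5 ± 9.57 CPM, above DC-like cells (13.2 ± 11.5 CPM) in 7 of 8 tumors. Neutrophil-like cells, too few to test in the saline tumors, had *Il18* at 21.9, 85.4 and 103 CPM after free R848 and 18.6 and 10.5 CPM after the medium BPD, on 1 to 16 UMIs from 15 to 39 cells. *Ifngr1*, the ligand-binding chain of the interferon-gamma receptor, was found in all 5 classes, from 54.9 ± 13.0 CPM in MC38-like cells to 119 ± 28.0 CPM in monocyte/macrophage-like, 219 ± 65.9 CPM in DC-like, 489 ± 72.6 CPM in NK-like and 579 ± 66.4 CPM in T-like cells.

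**Figure D1:**
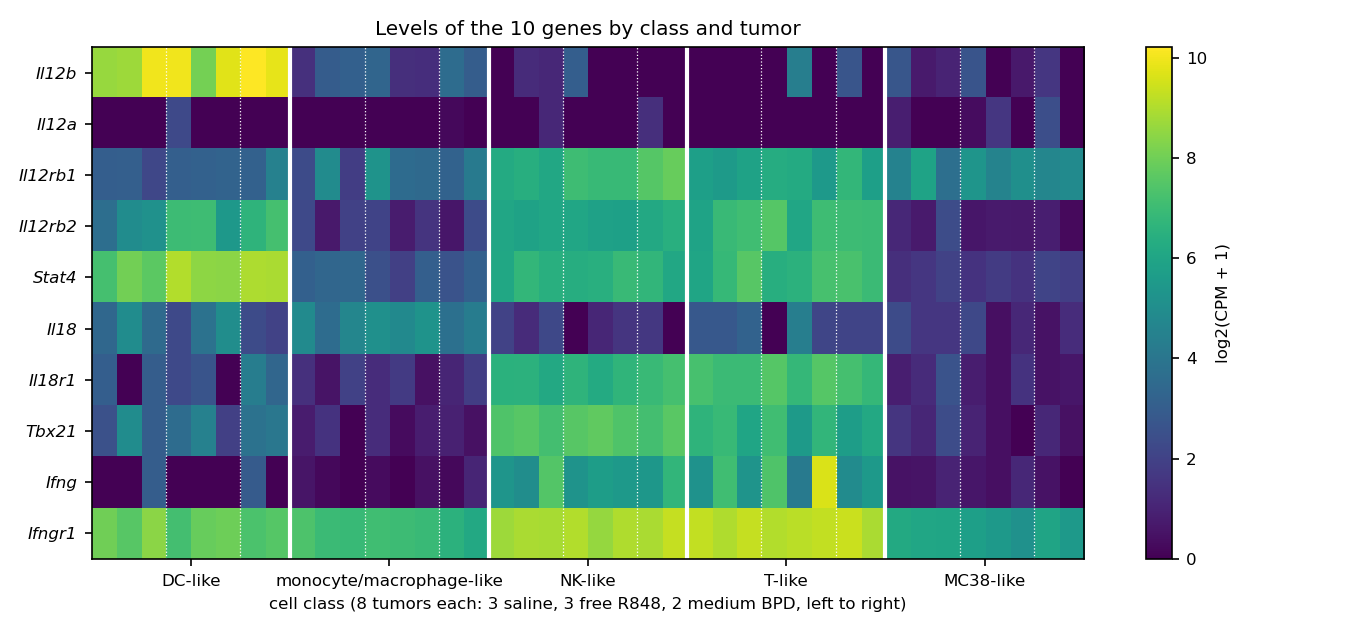
Each row is 1 of the 10 genes and each column 1 tumor within a cell class (3 saline, 3 free R848 and 2 medium BPD tumors from left to right), and colour gives log2(CPM + 1). *Il12b* was high in the DC-like columns alone, at 273 to 1184 CPM, while *Ifng* was found in the NK-like and T-like columns with 1 T-like column far above the others at 783 CPM.

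Counted as transcripts in place of levels, the producers were DC-like cells for *Il12b*, monocyte/macrophage-like cells for *Il18* and NK-like and T-like cells for *Ifng*. DC-like cells held 86.3% ± 14.2 of a tumor's *Il12b* UMIs (SD, n = 8), and mature DC-like cells, the CCR7+ state that DCs take on after activation, held 59.3% ± 12.1. In saline tumor 2, which had 26 DC-like cells, the DC-like share was 53.4% and the monocyte/macrophage-like share 42.7%. Monocyte/macrophage-like cells held 83.2% ± 3.75 of the *Il18* UMIs, between 76.2% and 89.1%. The split of *Ifng* moved from tumor to tumor: NK-like cells held 77.9%, 23.7% and 92.5% of it in the saline tumors, 25.4%, 84.6% and 8.63% after free R848 and 69.9% and 61.9% after the medium BPD, and T-like cells held most of the rest.

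**Figure D2:**
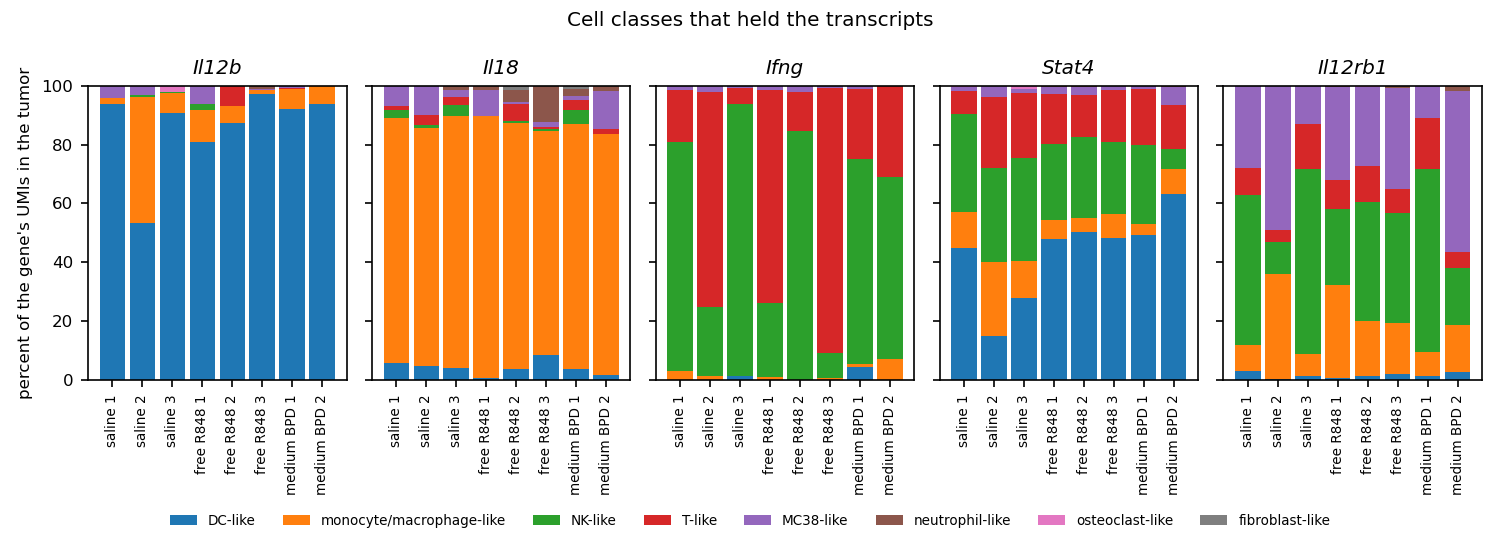
Stacked bars give the percent of a gene's UMIs that lay in each cell class, 1 bar per tumor. The DC-like share of *Il12b* was 53.4% to 97.4%, the monocyte/macrophage-like share of *Il18* 76.2% to 89.1%, and the NK-like share of *Ifng* 8.63% to 92.5%.

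*Il12b*, the p40 subunit that IL-12 shares with IL-23, was not called different between treatments in DC-like cells taken as 1 class. Its level was 400, 414 and 1026 CPM in the saline tumors, 1005, 273 and 863 CPM after free R848, and 1184 and 913 CPM after the medium BPD. The groups overlapped, and the medium BPD tumors lay on either side of the highest saline tumor. The log2 fold change was 0.76 ± 0.45 (SE) for the medium BPD against saline (edgeR's quasi-likelihood test over tumors, Benjamini-Hochberg adjusted p = 0.306), 0.21 ± 0.42 for free R848 against saline (adjusted p = 0.848) and 0.55 ± 0.45 for the medium BPD against free R848 (adjusted p = 0.734). With no filter on low counts the first was called (adjusted p = 0.0207). The first 2 of these comparisons share the saline tumors, here and throughout. Few cells carried most of the signal: 2805 *Il12b* UMIs lay in 240 cells, and the single richest DC-like cell of a tumor held 18.9% to 41.8% of its DC-like *Il12b* UMIs. The share of DC-like cells with an *Il12b* UMI was 14.8%, 19.2% and 18.6% in saline tumors, 37.0%, 20.8% and 25.4% after free R848 and 33.6% and 34.3% after the medium BPD. With every cell thinned to 1000 UMIs, these shares became 8.08%, 19.2% and 12.8%, then 23.9%, 11.7% and 18.3%, then 19.7% and 22.9%, and the groups overlapped for free R848 while the medium BPD tumors stayed above the saline tumors by a small margin. The background for such shares, MC38-like cells with an *Il12b* UMI before thinning, was 0% to 2.5% at a median depth of 6990 to 14152 UMIs per cell, against 2690 to 5315 in DC-like cells. In monocyte/macrophage-like cells *Il12b* was at 1.66, 6.77 and 7.78 CPM in the saline tumors, 9.11, 1.63 and 1.51 CPM after free R848 and 11.3 and 6.97 CPM after the medium BPD. The groups overlapped there, and 0 of 3 comparisons were called. The medium BPD differed from saline by 0.84 ± 0.72 (adjusted p = 0.516) and from free R848 by 1.18 ± 0.74 (adjusted p = 0.530), the latter called with no filter (adjusted p = 0.0335) and 2.56 without free R848 tumor 1. The share of these cells with an *Il12b* UMI, 0.396% to 0.738% in saline tumors, 0.406% to 1.37% after free R848 and 1.55% to 2.57% after the medium BPD, was near that of MC38-like cells, which were deeper. Thinned to 1000 UMIs, the shares after the medium BPD were 0.584% and 0.999%, against 0% in MC38-like cells. In the saline tumors they were 0.133% to 0.456% against 0% to 1.485%, and after free R848 0% to 0.393% against 0% to 0.391%.

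The DC-like class was then split by state. In mature DC-like cells *Il12b* stood at 2314, 1686 and 3485 CPM in the saline tumors, 1405, 406 and 1675 CPM after free R848 and 1460 and 1101 CPM after the medium BPD. Every treated tumor was below every saline tumor, free R848 tumor 3 by a small margin. Saline tumor 2 rested on 5 mature cells and was left out of the test, which called neither difference. The log2 fold change was -1.33 ± 0.36 for free R848 (adjusted p = 0.232) and -1.21 ± 0.40 for the medium BPD (adjusted p = 0.135). Leaving out free R848 tumor 3 or medium BPD tumor 2 brought the first under the threshold (adjusted p = 0.0329 and 0.0494), and leaving out free R848 tumor 2 the second (adjusted p = 0.0147). In these cells 0 of the 4 genes tested were called in any comparison (1 for each drug against saline and 0 between the drugs at an unadjusted p under 0.05 in edgeR, DESeq2 not run), while 0% of all genes were called for free R848, 2.51% for the medium BPD and 0.388% for the medium BPD against free R848. Mature cells made up 14.2%, 19.2% and 19.6% of DC-like cells in the saline tumors, 67.4%, 37.7% and 42.3% after free R848 and 64.8% and 51.4% after the medium BPD. The two-sided exact permutation test over tumors gave p = 0.1 for each drug against saline, the smallest it allows here, and 0.6 between the drugs. The genes that define the mature state can themselves differ with treatment, so these shares serve as a description.

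In the DC-like cells outside the subclusters named mature, *Il12b* was at 137, 85.1 and 394 CPM in saline tumors, 210, 206 and 383 CPM after free R848 and 834 and 770 CPM after the medium BPD. It rose after the medium BPD against saline by 1.88 ± 0.40 on the log2 scale (edgeR adjusted p = 0.00432) and against free R848 by 1.55 ± 0.40 (adjusted p = 0.0396), where 10.7% and 3.01% of genes were called, and 0.321% for free R848 against saline. The first call was lost without saline tumor 1 (adjusted p = 0.0531), the second without free R848 tumor 1 or 2 or either medium BPD tumor (adjusted p = 0.0794 to 0.202). The make-up of these cells differed with treatment. The DC-like cells left unnamed because their subclusters were led by markers of other classes were 28 of 43 and 27 of 34 of them after the medium BPD, 6 of 15, 16 of 48 and 7 of 41 after free R848 and 9 of 139, 4 of 21 and 6 of 82 in the saline tumors. Those unnamed cells carried 816 and 897 CPM of *Il12b* after the medium BPD, 414, 129 and 213 CPM after free R848 and 934, 384 and 2834 CPM in the saline tumors, as well as 3921 to 8394 CPM of mature DC markers. Their part in the result was not tested, and without them 1 medium BPD tumor kept the 10 cells that a tumor needed to enter the test. In cDC2-like cells, the conventional DC subset that primes CD4 T cells, *Il12b* was at 0 in 6 tumors, 332 CPM in free R848 tumor 2 and 217 CPM in saline tumor 3. Free R848 tumor 1 and medium BPD tumors 1 and 2 had 5 cDC2-like cells each, too few to show that the gene was absent. In cDC2-like cells 0 of 3 genes tested were called for free R848 against saline (0 at an unadjusted p under 0.05 in edgeR, DESeq2 not run, 0.0716% of all genes called).

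**Figure D3:**
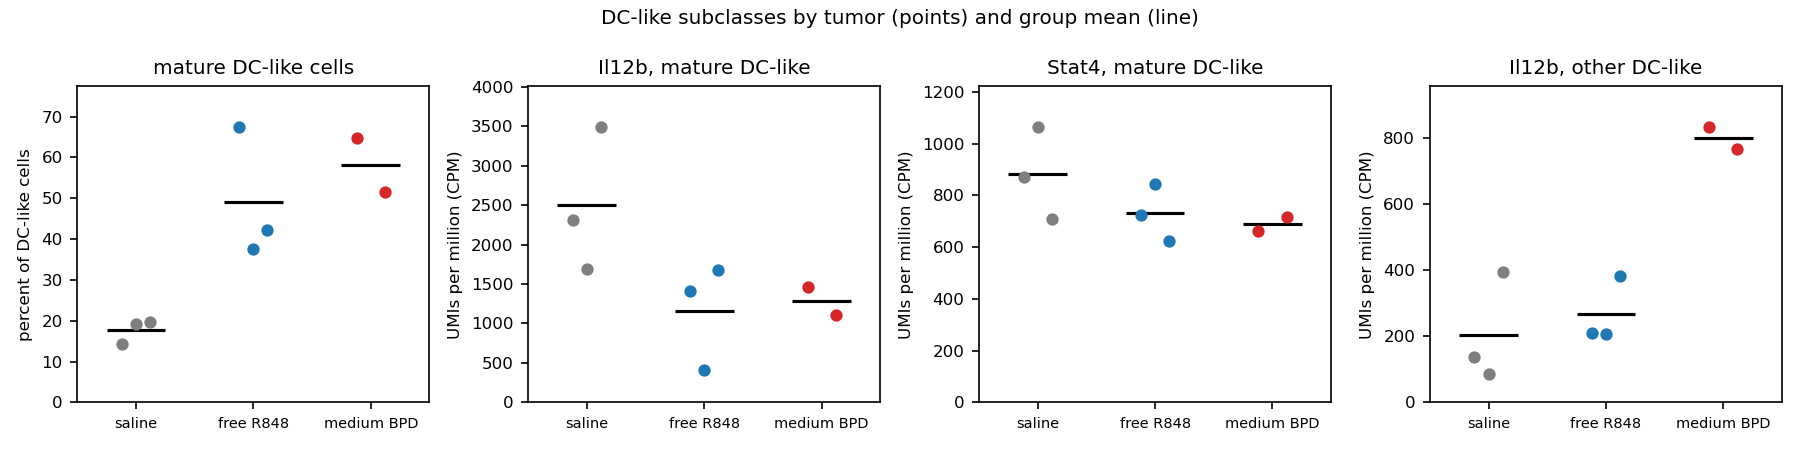
From left to right: the percent of DC-like cells that were mature, *Il12b* and *Stat4* in mature DC-like cells, and *Il12b* in the other DC-like cells, in CPM, with 1 point per tumor and a line at the group mean. Mature cells were 14.2% to 19.6% of DC-like cells after saline and 37.7% to 67.4% after either drug, while *Il12b* in mature cells was at 1686 to 3485 CPM in the saline tumors and 406 to 1675 CPM in the treated tumors.

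*Il12a*, which encodes p35 and limits how much p40 can form IL-12, was almost unseen. Its 29 UMIs lay in 23 cells, 20 of these UMIs in MC38-like cells, 4 in NK-like, 3 in neutrophil-like and 1 each in DC-like and monocyte/macrophage-like cells. T-like cells had 0 in 622 cells, and at most 0.482% of such cells could then carry a UMI, counting error only. Whether p35 and p40 transcripts were made in the same cells was therefore not detectable at this depth.

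*Il12rb2*, the chain that passes the IL-12 signal to STAT4, was higher in DC-like cells after both drugs. It stood at 12.1, 30.1 and 35.2 CPM in the saline tumors, 126, 132 and 43.0 CPM after free R848 and 98.3 and 145 CPM after the medium BPD. No treated tumor overlapped a saline tumor, although free R848 tumor 3 was close to the highest of them. It rose by 2.24 ± 0.49 on the log2 scale after free R848 (edgeR adjusted p = 0.0409) and by 2.49 ± 0.50 after the medium BPD (adjusted p = 0.00386), and the medium BPD differed from free R848 by 0.25 ± 0.40 (adjusted p = 0.891). The free R848 call rested on few UMIs, 34, 50 and 15 in the treated and 10, 4 and 10 in the saline tumors, and was lost when free R848 tumor 1 or 2 or saline tumor 1 or 3 was left out, with adjusted p up to 0.356. It was also lost with the replicate number as a block (adjusted p = 0.0709) and with only those 2 groups in the fit (adjusted p = 0.0539). The medium BPD call was lost without saline tumor 1 (adjusted p = 0.0707). Within mature DC-like cells, whose share of the class was larger in every treated tumor, *Il12rb2* stood at 60.1, 36.7 and 172.5 CPM in the saline tumors, 162, 279 and 92.6 CPM after free R848 and 101 and 193 CPM after the medium BPD. The groups overlapped, and neither drug was called there against saline (0.71 ± 0.54 and 0.31 ± 0.57, adjusted p = 0.807 and 0.857). Summed NK markers in DC-like cells were at 71.2, 67.7 and 95.2 CPM in the saline tumors, 77.9, 286 and 77.4 CPM after free R848 and 236 and 610 CPM after the medium BPD, and T markers at 219, 67.7 and 74.0 CPM, then 389, 363 and 43.0 CPM, then 277 and 281 CPM. NK-like and T-like cells express *Il12rb2*, and the part of such RNA and of the shift in mature cells in the result for the class was not tested. Of 5 of the 10 genes abundant enough to test in DC-like cells, 1 was called for free R848 (1.05% of all genes were), 2 for the medium BPD (14.0% of all genes) and 0 for the medium BPD against free R848 (1.05% of all genes). In the latter 1 had an unadjusted p under 0.05 and DESeq2 called 0.

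*Stat4*, the transcription factor that IL-12 activates, followed the same order in DC-like cells. Its level was 146, 263 and 201 CPM in the saline tumors, 526, 355 and 344 CPM after free R848 and 490 and 481 CPM after the medium BPD, with all treated tumors above all saline tumors. It rose after the medium BPD by 1.33 ± 0.27 on the log2 scale (edgeR adjusted p = 0.00450), and this call held when each of the 8 tumors was left out in turn. For free R848 against saline the difference was 1.08 ± 0.25 and was not called, with an adjusted p of 0.0516, just above the threshold. DESeq2, a fit with no filter on low counts and a fit without saline tumor 2 called it (adjusted p = 0.0200, 0.00136 and 0.0405). The medium BPD differed from free R848 by 0.25 ± 0.26 (adjusted p = 0.808). After thinning to 1000 UMIs, 11.8%, 19.2% and 12.8% of DC-like cells had a *Stat4* UMI in the saline tumors, 37.0%, 32.5% and 22.5% after free R848 and 36.9% and 28.6% after the medium BPD.

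Within mature DC-like cells, *Stat4* was not called. It was at 872, 1063 and 707 CPM in saline tumors, 725, 844 and 625 CPM after free R848 and 662 and 715 CPM after the medium BPD. The log2 difference was -0.28 ± 0.24 for the medium BPD (adjusted p = 0.661) and -0.17 ± 0.23 for free R848 (adjusted p = 0.906). The treated and saline tumors overlapped there, in cells where *Stat4* was higher than in the rest of the class in every tumor. In the DC-like cells outside the subclusters named mature it stood at 46.7, 56.7 and 70.9 CPM in saline tumors, 133, 111 and 178 CPM after free R848 and 272 and 304 CPM after the medium BPD. There it rose by 2.32 ± 0.30 after the medium BPD (adjusted p = 4.97e-05), and *Il12rb2* by 3.75 ± 0.67 (adjusted p = 0.00113) from 4, 3 and 0 UMIs in the saline tumors to 31 and 20. Such low saline counts of *Il12rb2* leave the size of its rise imprecise. NK markers summed to 501 and 1040 CPM in these cells after the medium BPD against 56.7 to 111 CPM in saline tumors, and T markers to 605 and 482 CPM against 85.1 to 242 CPM. NK-like and T-like cells express both genes. The unnamed cells described above, which carried mature DC markers, were most of this group after the medium BPD and a smaller part of it in every other tumor. After the medium BPD they held *Stat4* at 347 and 362 CPM and *Il12rb2* at 120 and 122 CPM. The part of such RNA and of this make-up in the result was not tested.

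*Stat4* in monocyte/macrophage-like cells was low, at 2.79 to 9.64 CPM, and its response differed from that of DC-like cells. The treatment effect in DC-like cells exceeded that in monocyte/macrophage-like cells by 1.99 ± 0.36 on the log2 scale for free R848 (edgeR test of the difference with the tumor as a block, adjusted p = 0.0250) and by 1.85 ± 0.38 for the medium BPD (adjusted p = 0.00500). For *Il12rb2* the effect of the medium BPD was greater by 3.10 ± 0.87 (adjusted p = 0.0442) at 0.540 to 4.04 CPM in monocyte/macrophage-like cells. Leaving out 1 tumor ended the first of these calls for free R848 tumor 1 or 2 and saline tumor 1 or 3 (adjusted p = 0.0833 to 0.195), the second for medium BPD tumor 1 (adjusted p = 0.155) and the third for medium BPD tumor 1 or saline tumor 1 or 3 (adjusted p = 0.0737 to 0.474). These differences in response were called for 0.219% of genes for free R848, 3.70% for the medium BPD and 0.419% for the medium BPD against free R848, where 0 of the 9 genes tested were called and 0 had an unadjusted p under 0.05. *Stat4* was not called in NK-like cells (66.5 to 121 CPM) or in T-like cells (63.0 to 188 CPM), nor was *Tbx21* (141 to 211 CPM and 46.1 to 133 CPM).

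**Figure D4:**
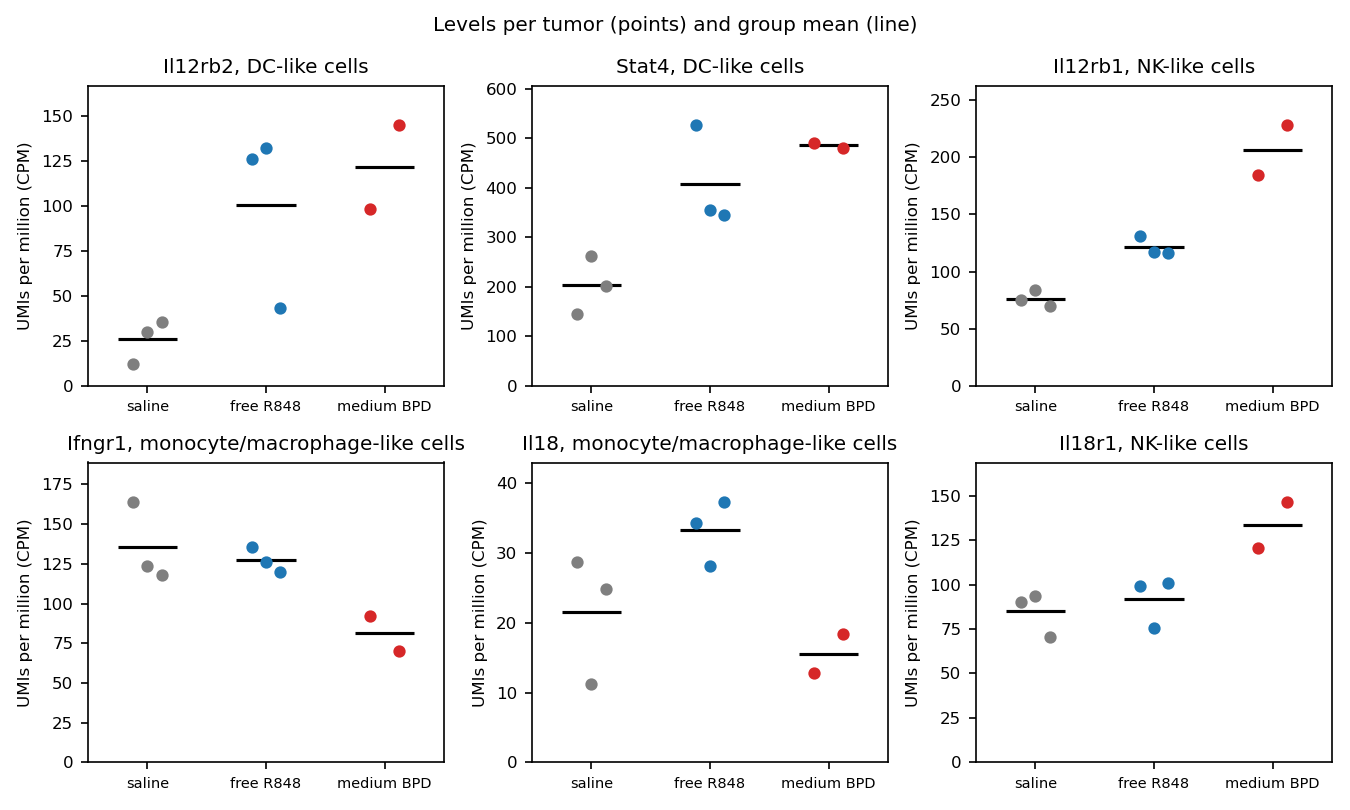
The panels plot gene and class pairs in CPM with 1 point per tumor and a line at the group mean. *Il12rb2* and *Stat4* in DC-like cells and *Il12rb1* in NK-like cells were higher in every medium BPD tumor than in every saline tumor, and *Ifngr1* in monocyte/macrophage-like cells was lower.

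*Il12rb1*, the chain shared by the receptors for IL-12 and IL-23, rose in NK-like cells after the medium BPD. Its level was 74.7, 83.7 and 69.5 CPM in the saline tumors, 131, 117 and 117 CPM after free R848 and 184 and 228 CPM after the medium BPD. The 3 groups did not overlap. The medium BPD was higher than saline by 1.39 ± 0.18 on the log2 scale (edgeR adjusted p = 0.000494), in every fit that left out 1 tumor. Free R848 was higher than saline by 0.68 ± 0.17, which was not called (adjusted p = 0.704), and the medium BPD exceeded free R848 by 0.71 ± 0.18, which was not called either (adjusted p = 0.139). This was the only call among the 7 genes tested in NK-like cells, where 0.945% of all genes were called for the medium BPD, 0% for free R848 and 0.315% for the medium BPD against free R848. In the 2 comparisons with 0 calls, 1 and 2 of the 7 had an unadjusted p under 0.05, and DESeq2 called 0. Thinned to 1000 UMIs, 7.56%, 8.82% and 4.43% of NK-like cells had an *Il12rb1* UMI in saline tumors, 18.5%, 10.5% and 8.33% after free R848 and 18.5% and 17.0% after the medium BPD, against 0.943% to 7.90% of MC38-like cells.

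*Il12rb1* was also read in each of the 3 NK-like clusters, without a test. In the largest, of 379 cells, the saline tumors stood at 62.9, 135 and 73.5 CPM, the free R848 tumors at 139, 116 and 155 CPM and the medium BPD tumors at 227 and 256 CPM. In the second, of 341 cells, these were 68.8, 59.6 and 48.8 CPM, then 86.2, 95.5 and 99.9 CPM, then 122 and 158 CPM. In the third, of 313 cells, they were 106, 87.5 and 89.7 CPM, then 186, 157 and 102 CPM, then 170 and 310 CPM. In none of the 3 did the medium BPD and saline tumors overlap, while the free R848 tumors overlapped the saline tumors in the largest and both other groups in the third. The summed NK markers also moved, from 3119 to 5171 CPM in saline to 5688 to 6709 CPM after free R848 and 8435 to 12410 CPM after the medium BPD, and their relation to *Il12rb1* was not tested. *Il12rb2* in NK-like cells stayed between 55.4 and 85.5 CPM and was not called (0.24 ± 0.21 for the medium BPD against saline, adjusted p = 0.798). In T-like cells *Il12rb1* was at 44.3 to 107 CPM and *Il12rb2* at 60.0 to 181 CPM, neither of them called, and the *Il12rb1* response of NK-like cells was not called different from that of T-like cells (difference 0.67 ± 0.38, adjusted p = 0.966, with 0% of genes called).

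*Il18* and its receptor chain *Il18r1* were not called in any class. In monocyte/macrophage-like cells *Il18* stood at 28.7, 11.2 and 24.8 CPM in the saline tumors, 34.2, 28.1 and 37.3 CPM after free R848 and 12.8 and 18.4 CPM after the medium BPD. The medium BPD tumors lay below the free R848 tumors and within the range of the saline tumors. The difference between the drugs was -1.08 ± 0.41 on the log2 scale (adjusted p = 0.263), which was called with no filter, with only those 2 groups in the fit or without saline tumor 2 (adjusted p = 0.000556, 0.0389 and 0.0218). That of free R848 from saline was 0.63 ± 0.35 (adjusted p = 0.523) and that of the medium BPD from saline -0.45 ± 0.41 (adjusted p = 0.540). *Il18r1* in NK-like cells was at 90.4, 93.6 and 70.7 CPM in saline tumors, 99.1, 75.4 and 101 CPM after free R848 and 120 and 147 CPM after the medium BPD. The difference from saline, 0.59 ± 0.20, was not called (adjusted p = 0.267). In T-like cells it lay between 110 and 183 CPM, and NK-like and T-like cells together held most *Il18r1* UMIs, 51.8% ± 7.73 and 39.0% ± 9.10 (SD, n = 8).

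*Ifng*, the product of the axis, was not called between treatments in NK-like or T-like cells, and single cells set several of its levels. In NK-like cells it was at 39.6, 31.2 and 176 CPM in the saline tumors, 36.9, 51.1 and 43.5 CPM after free R848 and 41.7 and 106 CPM after the medium BPD. The groups overlapped, and in saline tumor 3 a single cell held 71 of the 147 UMIs, without which the level was 91.3 CPM. The log2 difference from saline was -0.48 ± 0.56 for the medium BPD (adjusted p = 0.858) and -0.90 ± 0.49 for free R848 (adjusted p = 1.00). Without saline tumor 3 both turned to higher values after treatment, 0.69 and 0.28 (adjusted p = 0.464 and 0.971), and without medium BPD tumor 1 the first was 0.37. With no filter on low counts the second was called (adjusted p = 0.0478). The share of NK-like cells with an *Ifng* UMI was 16.2%, 14.7% and 17.9% after saline, 21.7%, 19.4% and 18.1% after free R848 and 18.5% and 29.8% after the medium BPD, against 0% to 1.33% of MC38-like cells. After thinning the groups overlapped, at 0.980% to 7.88%, 2.42% to 5.56% and 3.32% to 8.51%.

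In T-like cells *Ifng* was at 36.0, 135 and 37.5 CPM in saline tumors, 166, 17.0 and 783 CPM after free R848 and 29.6 and 43.2 CPM after the medium BPD. In free R848 tumor 3, 199 of the 230 UMIs came from a single cell, and without it the level was 111 CPM. The differences, 1.99 ± 0.91 for free R848 (adjusted p = 0.799) and -1.17 ± 1.21 for the medium BPD (adjusted p = 0.990), were not called. Between the drugs the difference was -3.16 ± 1.148 (unadjusted p = 0.0178, adjusted p = 0.565), not called either. Without free R848 tumor 3 the difference of free R848 from saline was 0.28 and that between the drugs -1.44. With no filter on low counts *Ifng* was called for free R848 against saline (adjusted p = 2.79e-12) and between the drugs (adjusted p = 3.76e-20), on levels in which this cell is counted. The CD8-gated T-like cells, 292 cells with a *Cd8a* or *Cd8b1* UMI, carried most of the T-like *Ifng* in the tumors where it was high. It stood at 199 and 1417 CPM in free R848 tumors 1 and 3 and 185 CPM in saline tumor 2, against 11.6 to 111 CPM in the other 5. In these cells and in the other T-like cells 0 of 7 genes were called in any comparison (0 or 1 at an unadjusted p under 0.05 in each by edgeR, DESeq2 not run). At most 0.0442% of all genes were called in the CD8-gated cells (0.0221% for the medium BPD against saline) and 0.0188% and 0.131% in the other T-like cells for the medium BPD against free R848 and saline. Of the 7 genes tested in T-like cells 0 were called in any comparison, where 0.0143% of all genes were called for the medium BPD against either group and 0% for free R848 against saline. With an unadjusted p under 0.05 there were 0, 0 and 1 for free R848 against saline, the medium BPD against saline and the medium BPD against free R848, and DESeq2 called 0 in each.

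**Figure D5:**
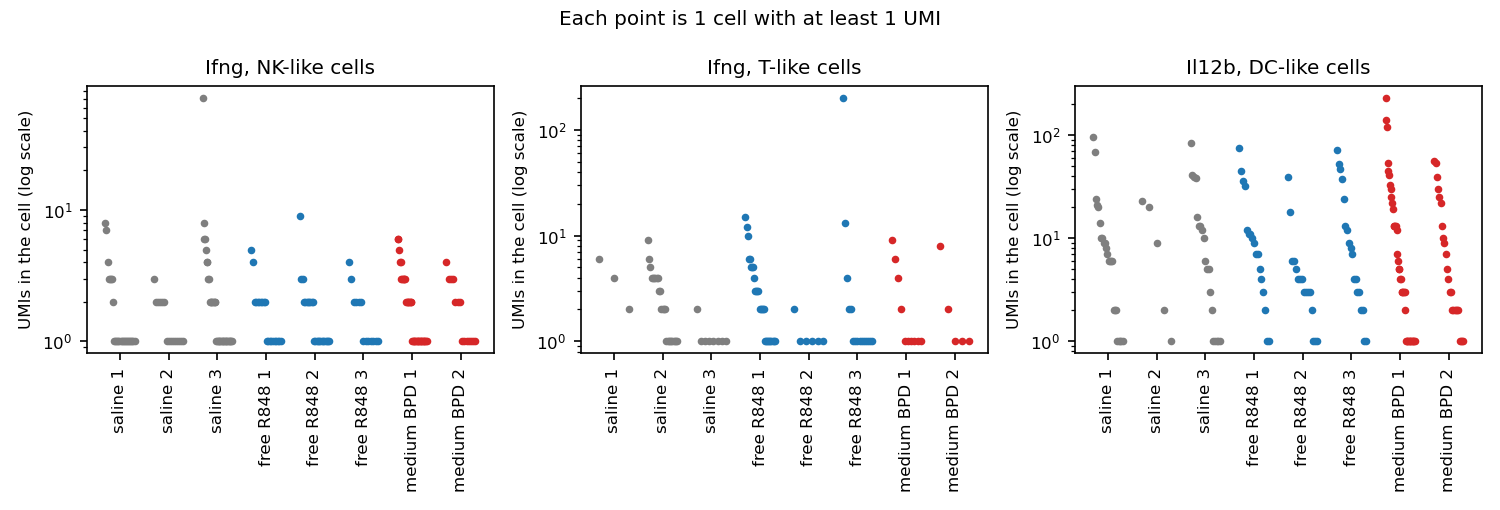
Each point is a cell with at least 1 UMI of *Ifng* (NK-like, T-like) or *Il12b* (DC-like), placed by its number of UMIs on a log scale and by tumor. In the *Ifng* panels 1 cell stands far above the rest in saline tumor 3 (71 UMIs, NK-like) and in free R848 tumor 3 (199 UMIs, T-like), while *Il12b* was spread over many levels in each tumor.

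*Ifngr1* fell in monocyte/macrophage-like cells after the medium BPD. It stood at 164, 124 and 118 CPM in the saline tumors, 135, 126 and 120 CPM after free R848 and 92.3 and 70.1 CPM after the medium BPD, whose tumors were below all others. The fall from saline was -0.71 ± 0.18 on the log2 scale (edgeR adjusted p = 0.0427), and it was called in 2 of the 8 fits that left out 1 tumor, those without saline tumor 2 or 3. Without any of the other tumors the adjusted p was 0.0729 to 0.302, and with only those 2 groups in the fit it was 0.132. Against free R848 the difference was -0.61 ± 0.18, not called (adjusted p = 0.134), though it was called with no filter on low counts and with only those 2 groups in the fit (adjusted p = 0.0295 and 0.0369). It was the only call among the 7 genes tested in this class, where 7.29% of all genes were called for the medium BPD, 0.0189% for free R848 and 1.66% for the medium BPD against free R848. In the latter 2 comparisons 0 of the 7 were called, 1 and 2 had an unadjusted p under 0.05, and DESeq2 called 0. *Ifngr1* was not called in DC-like (141 to 345 CPM), NK-like (388 to 627 CPM), T-like (482 to 663 CPM) or MC38-like cells (34.7 to 72.9 CPM). In MC38-like cells 0 of 3 genes tested were called in any comparison (0, 1 and 0 at an unadjusted p under 0.05 for the medium BPD against saline, free R848 against saline and the medium BPD against free R848, and 0 by DESeq2), where 1.10%, 0% and 0.330% of all genes were called.

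A list of 66 genes of the wider pathway, the 10 genes included, was counted in the same fits. In DC-like cells after the medium BPD, 12 of the 53 tested rose and 6 fell against saline, a median log2 fold change of 0.43 beside 0.0079 over all genes tested. The 14.0% of all genes called is the background of these counts. Among those that rose, *Il27* (2.95 ± 0.54) and *Ebi3* (1.56 ± 0.33) encode the 2 subunits of IL-27, *Il15ra* (2.25 ± 0.46) presents IL-15 to NK and T cells, *Il18bp* (2.20 ± 0.53) encodes the secreted inhibitor of IL-18, and *Cd274* (1.77 ± 0.27) encodes PD-L1. *Il27* was at 7.24, 0 and 21.2 CPM in the saline tumors, 3.71, 18.5 and 11.5 CPM after free R848 and 84.8 and 70.9 CPM after the medium BPD, and it was also higher after the medium BPD than after free R848 (adjusted p = 0.0218). Its levels in the saline and free R848 tumors were near the detection limit, so the size of both differences is imprecise. The interferon-induced *Gbp5* (1.70 ± 0.30) rose as well. The genes that fell were those of antigen presentation on MHC class II, *H2-Ab1* (-2.57 ± 0.36), *Cd74* (-2.24 ± 0.31), *H2-Aa* (-1.92 ± 0.29) and their transactivator *Ciita* (-2.33 ± 0.45), the inflammasome sensor *Nlrp3* (-1.77 ± 0.35) and *Cish* (-1.55 ± 0.35), a feedback inhibitor of cytokine signalling. *Cd274*, *Gbp5*, *H2-Ab1*, *Cd74*, *H2-Aa* and *Ciita* kept their call without each tumor in turn. *Il27*, *Ebi3* and *Nlrp3* lost it without medium BPD tumor 1 (adjusted p = 0.0638, 0.246 and 0.0933), *Il15ra* without saline tumor 1 (adjusted p = 0.0609), *Cish* without either of these tumors (adjusted p up to 0.0962), and *Il18bp* without medium BPD tumor 2 or saline tumor 1 or 3 (adjusted p up to 0.151). Of the 20 interferon-gamma targets on the list, 18 were tested in these cells, and 4 rose and 4 fell. The mature share of DC-like cells moved with these genes, and its part in them was not tested.

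After free R848, DC-like cells showed 1 rise (*Il12rb2*) and 2 falls of 53 against saline (1.05% of all genes were called), in *Cxcl10* (-1.81 ± 0.33), a chemokine for T and NK cells, and *Nlrp3* (-1.52 ± 0.31). *Cxcl10* was at 792, 346 and 539 CPM in the saline tumors, 89.0, 177 and 218 CPM after free R848 and 206 and 361 CPM after the medium BPD, with free R848 below saline in every tumor. Both falls were lost without free R848 tumor 1 or 2 or saline tumor 1 or 3 (adjusted p up to 0.226). Between the drugs, with 1.05% of all genes called, *Il27* was higher and *H2-Ab1* and *Cd74* were lower after the medium BPD, and each call was lost without either medium BPD tumor and without free R848 tumor 2 or 3, the latter 2 genes also without any saline tumor (adjusted p up to 0.242).

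In monocyte/macrophage-like cells 3 of 59 rose and 8 fell after the medium BPD against saline, with a median of -0.053 beside -0.0051 over all genes, of which 7.29% were called. *Nos2*, which makes nitric oxide in activated macrophages, rose by 4.13 ± 0.57 on the log2 scale, from 7.59, 22.6 and 37.1 CPM in saline tumors to 250.2 and 490 CPM. It was at 44.3, 20.2 and 41.8 CPM after free R848. This call was kept without each tumor in turn. *Cd274* and *Ebi3* rose too, by 1.42 and 0.84. *Ciita*, *Rel*, *Runx3*, *Cxcl10*, *Nfkb1*, *Il10ra*, *Ifngr1* and *Tyk2* fell, and *Il10ra*, the IL-10 receptor chain, was at 171, 220.1 and 163 CPM in saline tumors and 104.5 and 89.9 CPM after the medium BPD. Without medium BPD tumor 2, the calls of these genes other than *Nos2* were lost (adjusted p up to 0.302), and 9 of those 10 were also lost without another tumor. Against free R848, where 1.66% of all genes were called, *Nos2* was higher by 3.44 ± 0.55 (adjusted p = 0.0220) and *Il10ra* differed by -1.08 ± 0.15 (adjusted p = 0.0160), and these calls were lost in 4 and 5 of the 8 fits that left out 1 tumor. Free R848 gave 0 calls of 59 here against saline (8 at an unadjusted p under 0.05 in edgeR, 1 call by DESeq2, and 0.0189% of all genes called). In NK-like cells *Il12rb1* and the transcription factor *Batf3* rose and *H2-Aa* fell of 52 tested after the medium BPD against saline (0.945% of all genes were called), with *Batf3* at 1.49, 2.84 and 4.80 CPM in saline and 33.3 and 20.4 CPM after the medium BPD. The saline levels of *Batf3* were near the detection limit, so the size of its rise is imprecise. Without medium BPD tumor 1 *Batf3* and *H2-Aa* were not called (adjusted p = 0.349 and 0.572), and *H2-Aa* was also lost without saline tumor 1 or 2. *H2-Aa* was at 79.9, 106 and 61.1 CPM in the saline tumors and 7.39 and 28.5 CPM after the medium BPD. Summed monocyte/macrophage markers in these cells were at 2086 to 3101 CPM in saline tumors and 1914 to 2053 CPM after the medium BPD, and the part of such RNA was not tested. In NK-like cells free R848 against saline and the medium BPD against free R848 gave 0 calls (9 and 11 at an unadjusted p under 0.05, 0 by DESeq2, and 0% and 0.315% of all genes called). In T-like cells 0 of 52 were called in any comparison (6 to 10 at an unadjusted p under 0.05 in edgeR, 0 by DESeq2, and 0% to 0.0143% of all genes called). In MC38-like cells 0 of 53 rose and 4 fell after the medium BPD against saline, *H2-Ab1*, *H2-Aa*, *Cd74* and *Il10ra* (1.10% of all genes were called), while summed monocyte/macrophage markers in those cells went from 532 to 1676 CPM in saline tumors to 198 to 286 CPM, and the part of such RNA was not tested. All 4 calls were lost without medium BPD tumor 2 (adjusted p up to 0.157). *Casp4*, an inflammatory caspase, was higher in these cells after the medium BPD than after free R848 by 0.87 ± 0.16 (adjusted p = 0.0426, 0.330% of all genes called), a call kept in 3 of the 8 fits that left out 1 tumor.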

How the data were processed

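Single-cell suspensions of 8 MC38 tumors were profiled by Seq-Well 24 h after treatment. The authors deposited 1 table per tumor of raw UMI counts, whole numbers per gene and cell barcode and not normalized. The submitters' processing notes name bcl2fastq and the mm10 build. The aligner's settings and the use of strand in counting are not given in the sources used here.

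Cells with over 400 and under 10000 genes, under 50000 UMIs and at most 15% mitochondrial UMIs were kept. Scrublet, in scanpy 1.11.5, marked 67 cells (0.678%) as doublets, which stayed in the analysis and were left out in an alternative. Clusters (Seurat 5.3.0, R 4.3.3) used 30 principal components at resolution 0.8 for all cells and 11 at resolution 1.3 for non-malignant cells, without the 10 genes and the pathway genes. A cluster was named from at least 3 detected markers. UMI counts were summed per tumor and class (at least 10 cells), and CPM is UMIs per 1000000 UMIs of that sum. Sums were tested with edgeR 4.0.16 (filterByExpr, TMM, quasi-likelihood test, all 3 groups in 1 fit), with p-values adjusted by Benjamini-Hochberg over all genes tested and a threshold of 0.05, and a gene past it is written as called. The difference in response between classes was the class-by-treatment term with the tumor as a block. DESeq2 1.42.0 was the alternative tool. The edgeR step was tested on simulated counts. The test over single cells that the study's methods describe was not used, because tumors and not cells are the replicates.

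Shares of cells with a UMI were compared after thinning each cell to 1000 UMIs (2000 in an alternative) by a two-sided exact permutation test over tumors. Intervals at 95% and the limit of 3 counts for a 0 cover counting error only. Nothing in the labels ties a tumor to an animal, so p-values measure the spread between these samples. The mean correlation of the deviations of same-numbered tumors of different groups was -0.0562 to 0.0813 by class. Deviations cancel within a group by construction, so these means cannot exclude that same-numbered tumors share an effect. The numbers were not taken as pairs, and a fit with the replicate number as a block was run as an alternative.

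The 10 genes, the marker lists and the list of 66 pathway genes were chosen with earlier results of these data known. Genes named are the 10 genes in every class, pathway genes called in a comparison, and the 5 most like *Il12b*, *Il18* and *Ifng*. The rule for pathway genes was at most 10 by size of change, and more were named for the medium BPD against saline in DC-like cells. Alternatives were each tumor left out, the replicate number as a block, RLE in place of TMM, fits of 2 groups at a time, tests with low counts kept, other gene sets for clustering and doublets left out. Added after seeing the data were cells with shared barcodes left out, mixed subclusters left out, the CD8 gate and the split of DC-like cells by maturity.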

Additional observations from a re-analysis of the deposited data

Results flagged for a closer look

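For *Stat4* and *Il12rb2*, genes that act in the IL-12 response, the effect of treatment differed between DC-like and monocyte/macrophage-like cells by edgeR's test of the difference itself. The log2 fold change of *Stat4* against saline was greater in DC-like cells by 1.99 for free R848 (adjusted p = 0.0250) and by 1.85 for the medium BPD (adjusted p = 0.00500), and that of *Il12rb2* by 3.10 for the medium BPD (adjusted p = 0.0442). Both genes were near the detection limit in monocyte/macrophage-like cells, at 2.79 to 9.64 CPM and 0.540 to 4.04 CPM. Mature cells were a larger share of DC-like cells in every treated tumor than in every saline tumor, and the part of this shift in the differences was not tested. Within mature DC-like cells alone the *Stat4* difference from saline was -0.17 ± 0.23 for free R848 and -0.28 ± 0.24 for the medium BPD. *Stat4* was at 46.7 to 70.9 CPM in the other DC-like cells of the saline tumors. After free R848 it was at 111 to 178 CPM there, and after the medium BPD at 272 to 304 CPM. The rise after the medium BPD was called in those cells (log2 fold change 2.32, edgeR adjusted p = 4.97e-05). That after free R848 was not called. The make-up of those cells also differed with treatment, and its part in their values was not tested.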

How the results depend on the processing

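Of the 10 genes, the number called for free R848 against saline in DC-like cells was 1 as reported, 2 with DESeq2, 2 with no filter on low counts, 2 with the 10 genes and the pathway genes kept in the clustering, and 0 with only the 2 groups in the fit. For the medium BPD against free R848 in monocyte/macrophage-like cells it was 0 as reported, 3 with no filter and 2 with only the 2 groups, and against saline it was 1 as reported and 0 with only the 2 groups. With no filter on low counts, *Ifng* was called for free R848 against saline in NK-like cells (1 gene in place of 0) and for free R848 against saline and the medium BPD against free R848 in T-like cells (1 each in place of 0). Without that filter the difference in response was called for 2 genes in place of 1 (DC-like minus monocyte/macrophage-like, free R848 against saline) and for 1 in place of 0 (NK-like minus T-like, both comparisons with free R848). Thinned to 1000 UMIs per cell, MC38-like cells held 0% of *Il12a* UMIs and monocyte/macrophage-like cells 90.1% of *Il18* UMIs. Leaving out 1 tumor at a time, the number called ranged from 0 to 1 in monocyte/macrophage-like cells for the medium BPD against either group, in mature DC-like cells for each drug against saline and in other DC-like cells for the medium BPD against free R848. It ranged from 0 to 2 in DC-like cells for free R848 and from 1 to 2 for the medium BPD, and from 0 to 2 for the difference in response in both comparisons with saline. The causes were not tested.

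With the replicate number as a block, *Il12rb2* in DC-like cells was not called for free R848 (adjusted p = 0.0709), which left 0 of the 10 genes. Among all genes the block gave 25 calls in place of 62 there, 418 in place of 771 (monocyte/macrophage-like, medium BPD against saline), 73 in place of 176 and 17 in place of 62 (medium BPD against free R848, monocyte/macrophage-like and DC-like), 20 in place of 36 (MC38-like, the same comparison), 1 in place of 2 (monocyte/macrophage-like, free R848 against saline), and, in T-like cells, 27 and 12 in place of 1 (medium BPD against saline and free R848) and 5 in place of 0. The block changed no other call of the 10 genes.

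Counts over all genes varied with the filter and with single tumors. With no filter, the medium BPD against saline gave 1758 calls in place of 771 in monocyte/macrophage-like, 228 in place of 81 in NK-like, 159 in place of 1 in T-like and 736 in place of 120 in MC38-like cells. In DC-like cells that count was 832, with 534 for DESeq2 and 1038 without the mixed subclusters. With only the 2 groups in the fit it was 180 in place of 771 in monocyte/macrophage-like, 58 in place of 81 in NK-like and 46 in place of 120 in MC38-like cells. With no filter free R848 against saline gave 538 in place of 2, 348 in place of 62 (DC-like), 41, 126 and 141 in place of 0 (NK-like, T-like and MC38-like), and the medium BPD against free R848 gave 928 in place of 176, 257 in place of 62, 115 in place of 27, 195 in place of 1 and 582 in place of 36. Without 1 tumor, the medium BPD against saline gave 86 to 1261 calls in monocyte/macrophage-like, 317 to 1049 in DC-like, 36 to 98 in NK-like, 1 to 23 in T-like and 26 to 600 in MC38-like cells. The medium BPD against free R848 then gave 15 to 593 and 14 to 233, and free R848 against saline 1 to 140 and 1 to 91, in monocyte/macrophage-like and DC-like cells. Of 2490 recomputed fold changes of the 10 genes, 0 called ones changed sign, 27 lost and 21 gained a call, and 177 not called in either fit changed sign. Of 40 pathway calls, recomputed 720 times, 133 were lost and 0 reversed. No cluster met the rule for poor quality, so keeping such a cluster changed nothing. The number of medium BPD tumors, 2, and the 26 DC-like cells of saline tumor 2 limit the precision.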

Other observations

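*Il12rb1* was detected in MC38-like cells. It stood at 22.2, 60.2 and 12.4 CPM in the saline tumors, 39.5, 22.9 and 32.8 CPM after free R848 and 24.7 and 28.9 CPM after the medium BPD, against 2.60 to 37.2 CPM in monocyte/macrophage-like cells. The groups overlapped. MC38-like cells held 31.1% ± 15.4 of the *Il12rb1* UMIs (SD, n = 8 tumors), NK-like cells 38.8% ± 19.3 and monocyte/macrophage-like cells 18.0% ± 10.7.

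Over 40 sums of 5 classes in 8 tumors and 9078 genes, the genes whose log2(CPM + 1) was most like that of *Il12b* were *Ccl22* (Pearson's r = 0.935), *Ncoa7* (0.929), *H2-Eb2* (0.925), *Tspan33* (0.925) and *Syngr2* (0.924), and *Ccl22* was also among the markers that named the DC-like class. For *Il18* these were *Cysltr1* (0.875), *Nod2* (0.865), *Evi2a* (0.864), *Picalm* (0.864) and *Lmo2* (0.862). For *Ifng* they were *Tmem163* (0.931), *Setbp1* (0.930), *Bspry* (0.925), *Il18r1* (0.923) and *Tmprss6* (0.909). The 5 points of a tumor share a library, and these values describe likeness alone.

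Thinned shares of cells with a UMI were compared in 150 exact permutation tests (two-sided). The smallest p that 2 or 3 tumors against 3 allow is 0.1, and every Benjamini-Hochberg adjusted p was 1.00, so these comparisons could not pass the threshold.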
